A study of Mus musculus with 21 samples.

Results

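The 10 genes described here are recurrently mutated in human myeloid neoplasms, besides the pair engineered in these mice, and were followed through RNA-seq of mouse bone marrow c-kit+ cells. They were taken by symbol from the deposited count table: Tet2, Dnmt3a, Idh1, Idh2, Runx1, Srsf2, Sf3b1, U2af1, Calr and Cbl, which are 10 of its 54532 genes. All 10 had enough reads to be tested. The samples were 3 Asxl1-/-Jak2V617F, 3 Jak2V617F, 2 Asxl1-/- and 3 WT libraries from C57BL/6 mice, without a stated agent. Leg bone marrow was cleared of red cells by lysis and enriched on magnetic beads for CD117, which is c-kit, the receptor through which progenitors sense stem cell factor. No age, sex, zygosity of Jak2V617F, promoter or Cre driver was given in the sources used here. No label states that the libraries of a group come from different animals, and p-values measure the spread among these libraries, part of which may be technical. In the Jak2V617F group, Y-linked reads in 1 of the 3 libraries show that they did not all come from 1 animal. The chromatin samples were not analysed here.

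Asxl1 is a chromatin protein and partner of the histone deubiquitinase BAP1, and Jak2V617F is the activated kinase of myeloproliferative neoplasms. The 10 genes fall into functional classes that are mutated beside these lesions in patients. Tet2 oxidises methylated cytosine and Dnmt3a writes it. Idh1 in the cytosol and Idh2 in mitochondria convert isocitrate to alpha-ketoglutarate, a substrate that Tet enzymes need. Runx1 is a DNA-binding subunit of core binding factor. Sf3b1 and U2af1 recognise the branch point and the 3' splice site, and Srsf2 binds exonic enhancers. Calr is a lectin chaperone of the endoplasmic reticulum and Cbl is a ubiquitin ligase that takes activated receptors out of service. RNA levels, which are all that was measured here, say nothing of mutations in these genes.

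Libraries held 16198011 to 19196283 counts. Levels are given as CPM, counts scaled to 1000000 per library after TMM adjustment. Kit, the gene behind the enrichment, averaged 248 ± 31.6 CPM in Asxl1-/-Jak2V617F libraries, 289 ± 53.7 CPM in Jak2V617F, 257 ± 11.8 CPM in Asxl1-/- and 269 ± 18.6 CPM in WT libraries (SD, n = 3, 3, 2 and 3). Asxl1 spanned 89.0 to 100.4 CPM in the 5 libraries with the Asxl1-/- label and 132 to 196 CPM in the other 6, and which exons were deleted was not given. Y-linked genes had 192 to 248 CPM in both Asxl1-/- libraries and in Jak2V617F 2, and 0 in the other libraries. When Asxl1-/- is compared with WT or with Asxl1-/-Jak2V617F, genotype and Y-linked reads coincide and cannot be told apart within those groups. A term for libraries with Y-linked reads could be fitted, and its estimate rests on Jak2V617F 2 against Jak2V617F 1 and 3.

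The Jak2V617F libraries differed from all others in lineage markers. The summed level of 10 granulocyte markers was 40462 to 50069 CPM in Asxl1-/-Jak2V617F libraries, 2549 to 5597 CPM in Jak2V617F, 66720 to 67932 CPM in Asxl1-/- and 44692 to 60100 CPM in WT libraries. All 10 passed as higher in Asxl1-/-Jak2V617F against Jak2V617F and as lower in Jak2V617F against WT. The 8 monocyte and macrophage markers summed to 3351 to 3640 CPM in Asxl1-/-Jak2V617F libraries, 295 to 748 CPM in Jak2V617F, 7119 to 7458 CPM in Asxl1-/- and 4207 to 6604 CPM in WT libraries. Erythroid markers ran the other way, with sums of 1487 to 2575 CPM in Asxl1-/-Jak2V617F libraries, 4314 to 5571 CPM in Jak2V617F, 1648 to 1813 CPM in Asxl1-/- and 1067 to 1817 CPM in WT libraries, and 9 of these 10 passed the test in both comparisons. The dendritic cell and MHC class II sum was 318 to 493 CPM in Asxl1-/-Jak2V617F libraries, 2638 to 3604 CPM in Jak2V617F, 396 to 522 CPM in Asxl1-/- and 236 to 429 CPM in WT libraries. No granulocyte, monocyte, erythroid or dendritic marker was at 0 in any library, and 8 stroma markers summed to at most 29.0 CPM, with Pdgfra at 0 in 9 libraries. Every comparison below with the Jak2V617F group also differs in these marker levels, and their part in its differences was not tested. Among the other genotypes the monocyte sums did not overlap either, and the granulocyte sum was highest in Asxl1-/-. Few of these markers passed singly there, and no granulocyte or monocyte marker did in Asxl1-/- against WT. The part of marker levels in comparisons without the Jak2V617F group was not tested either. In bulk RNA, fewer cells of a type and less RNA per cell cannot be told apart.

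**Figure D1:**
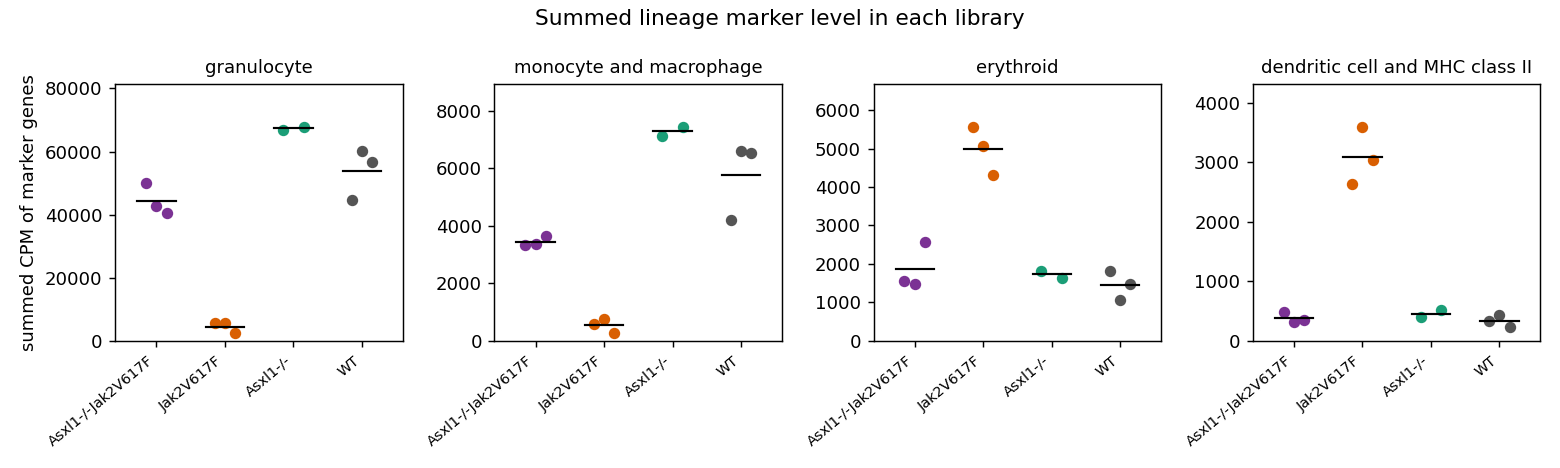
Summed CPM of the genes of 4 lineage marker lists (vertical axes) in each library, by genotype, with the group mean as a line. The Jak2V617F points lie lowest for granulocyte and monocyte markers and highest for erythroid and dendritic markers.

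Most of the 10 driver genes had lower RNA levels in Jak2V617F than in WT libraries, and higher levels in Asxl1-/-Jak2V617F than in Jak2V617F. Against Jak2V617F, 7 of the 10 rose in Asxl1-/-Jak2V617F and 0 fell (edgeR quasi-likelihood test, Benjamini-Hochberg adjusted p under 0.05), while 44.3% of all 16262 genes tested passed, 24.5% higher and 19.8% lower. The median log2 fold change of the 10 was 0.81, beside -0.01 for all genes. In Jak2V617F against WT, 7 fell and 1 rose, beside 53.5% of all genes passing, 29.2% lower and 24.4% higher, with a median of -0.77 for the 10 and -0.05 for all genes. Both comparisons use the same 3 Jak2V617F libraries. Asxl1-/- against WT gave 2 higher and 2 lower genes, beside 22.5% of all genes passing, 11.3% higher and 11.2% lower. Asxl1-/-Jak2V617F against WT gave 2 higher genes, beside 15.1% (8.3% higher, 6.76% lower), and Asxl1-/-Jak2V617F against Asxl1-/- gave 2 higher genes, beside 5.53% (3.31% higher, 2.22% lower). The share of the 10 that passed was near the background for Asxl1-/-Jak2V617F against WT. Libraries did not overlap for 8 of the 10 in Asxl1-/-Jak2V617F against Jak2V617F (53.9% of all genes), 8 in Jak2V617F against WT (61%), 7 in Asxl1-/- against WT (57.2%), 4 in Asxl1-/-Jak2V617F against WT (36.5%) and 2 in Asxl1-/-Jak2V617F against Asxl1-/- (43.8%).

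**Figure D2:**
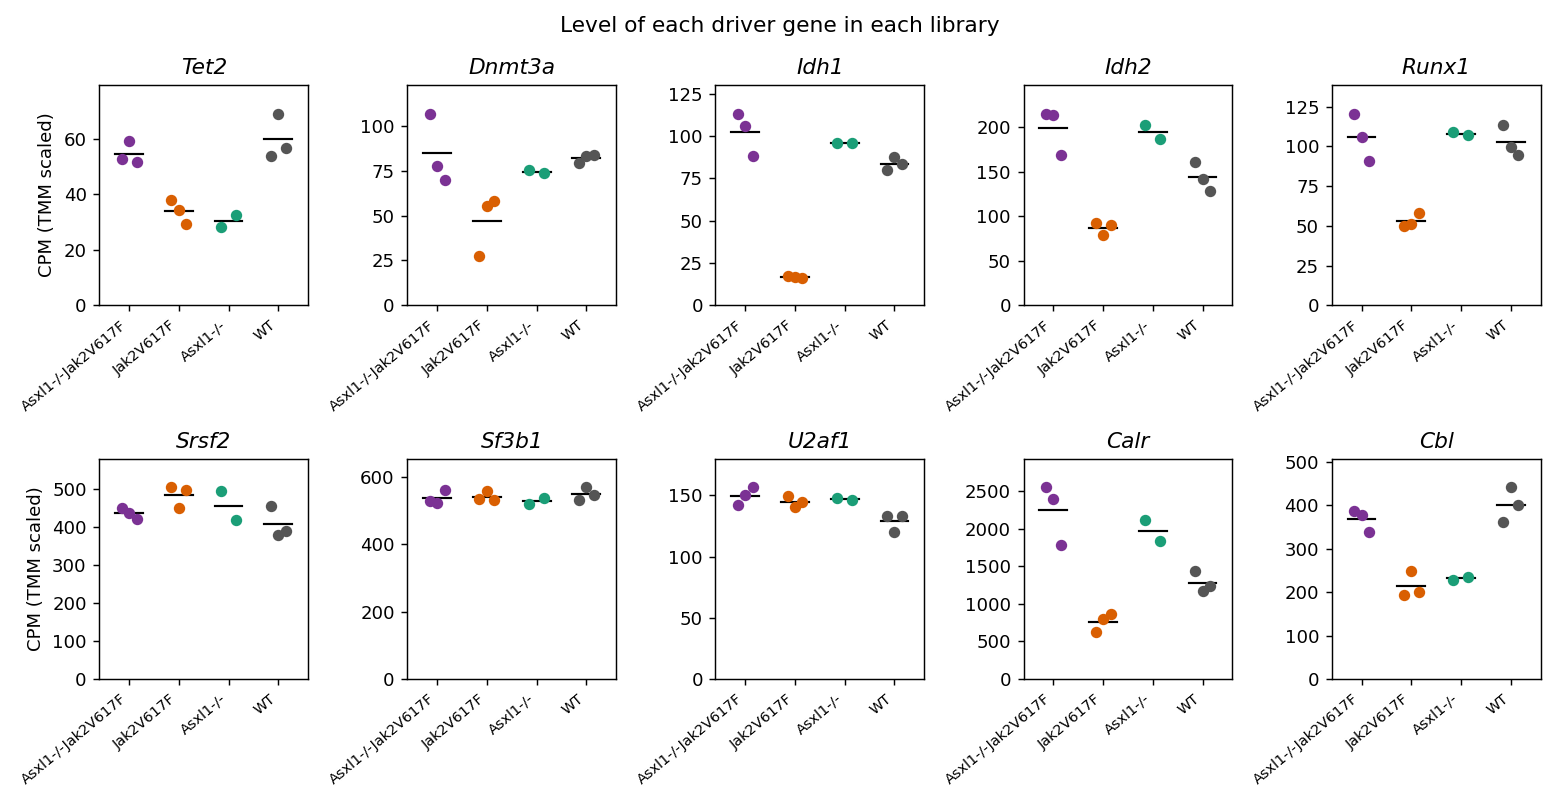
CPM of the 10 driver genes (vertical axes, from 0) in each of the 11 libraries, by genotype, with the group mean as a line. Tet2 and Cbl are low in both Jak2V617F and Asxl1-/-, Idh1, Idh2, Runx1 and Calr are lowest in Jak2V617F, and Sf3b1 lies between 521 and 569 CPM throughout.

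Tet2 (ENSMUSG00000040943, mm10 chr3:133463679-133545139, minus strand), the cytosine oxidase, was low with either lesion alone and near the WT level with both. Its levels were 52.9, 59.3 and 51.5 CPM in Asxl1-/-Jak2V617F libraries, 37.9, 34.5 and 29.2 CPM in Jak2V617F, 28.3 and 32.7 CPM in Asxl1-/-, and 53.7, 69.1 and 56.7 CPM in WT libraries. The Jak2V617F and Asxl1-/- libraries overlapped each other and lay below every Asxl1-/-Jak2V617F and WT library. On the log2 scale Tet2 rose by 0.69 ± 0.13 in Asxl1-/-Jak2V617F against Jak2V617F (± SE, adjusted p = 0.00105) and by 0.84 ± 0.15 against Asxl1-/- (adjusted p = 0.00978). It fell by 0.82 ± 0.13 in Jak2V617F against WT (adjusted p = 0.000221) and by 0.97 ± 0.15 when Asxl1-/- was set against WT (with adjusted p = 0.00227). In Asxl1-/-Jak2V617F against WT the difference was -0.13 ± 0.13, with a 95% interval of -0.41 to 0.14 (adjusted p = 0.485). The calls that use Asxl1-/- were lost without Asxl1-/- 1 (adjusted p = 0.117 against Asxl1-/- and 0.0539 against WT), and the call against Asxl1-/- also without Asxl1-/- 2 (adjusted p = 0.0668). Both were also lost with the Y-linked term, where the difference was 0.88 against Asxl1-/- (adjusted p = 0.179) and -1.01 against WT (adjusted p = 0.0537).

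The ratio of Tet2 to Tet3, its paralogue, was also lower with either lesion alone. It was lowest in Jak2V617F, whereas the mean of Tet2 was lowest in Asxl1-/-. In length-scaled CPM the ratio was 0.355 ± 0.0134 in Asxl1-/-Jak2V617F, 0.206 ± 0.0346 in Jak2V617F, 0.282 ± 0.0194 in Asxl1-/- and 0.364 ± 0.0300 in WT (SD, n = 3, 3, 2 and 3). Tet1, the third of these oxidases, fell by 1.61 ± 0.27 log2 units in Jak2V617F against WT (adjusted p = 0.000422) and rose by 1.61 ± 0.27 in Asxl1-/-Jak2V617F against Jak2V617F (with adjusted p = 0.000598). Tet3 fell by 0.60 ± 0.11 in Asxl1-/- against WT (with adjusted p = 0.0042) and was higher by 0.51 ± 0.11 in Asxl1-/-Jak2V617F than in Asxl1-/- (adjusted p = 0.0201). Genotype and Y-linked reads coincide in both of these Tet3 comparisons.

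Dnmt3a (ENSMUSG00000020661, mm10 chr12:3806007-3914443, plus strand), the de novo methyltransferase, was lower in Jak2V617F, with the widest spread between replicates, relative to the mean, of the 10 genes in that group. It was at 107, 77.8 and 70.0 CPM in Asxl1-/-Jak2V617F libraries, 27.5, 55.6 and 58.2 CPM in Jak2V617F, 75.6 and 73.6 CPM in Asxl1-/-, and 79.6, 83.2 and 83.7 CPM in WT libraries. All Jak2V617F libraries lay below all others, and Jak2V617F 1 lay well below its group. The log2 difference was 0.85 ± 0.25 in Asxl1-/-Jak2V617F against Jak2V617F (with adjusted p = 0.0204) and -0.80 ± 0.25 in Jak2V617F against WT (adjusted p = 0.0218). Without Jak2V617F 1 these values were 0.57 (adjusted p = 0.0122) and -0.52 (adjusted p = 0.0152). The first call did not hold without Asxl1-/-Jak2V617F 1 (adjusted p = 0.0786), and the second without WT 1 or WT 2 (adjusted p = 0.0555 and 0.0568). The first call was also lost with the compared groups alone (adjusted p = 0.0583), and both without the filter on low counts (adjusted p = 0.0748 and 0.0766).

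Of 14 other tested genes that write, read or oxidise DNA methylation, 5 rose and 2 fell in Asxl1-/-Jak2V617F against Jak2V617F, with a median log2 fold change of 0.16. Without Asxl1-/-Jak2V617F 2 only 4 passed in all. In Jak2V617F against WT 3 rose and 5 fell, with a median of -0.11. Of all genes 44.3% and 53.5% passed in these comparisons, which is also the background for the related lists below. Cxxc5, a CXXC zinc finger protein, rose by 1.30 ± 0.17 in Asxl1-/-Jak2V617F against Jak2V617F (with adjusted p = 9.27e-05), and Dnmt1, the maintenance methyltransferase, by 0.29 ± 0.08 (adjusted p = 0.0116).

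Idh1 (ENSMUSG00000025950, mm10 chr1:65158616-65186500, minus strand) had the widest range of the 10 genes, 2.60 on the log2 scale between its highest and lowest genotype means. It was at 113, 106 and 88.1 CPM in Asxl1-/-Jak2V617F libraries, 17.2, 16.8 and 16.1 CPM in Jak2V617F, 95.6 and 95.6 CPM in Asxl1-/-, and 79.7, 87.3 and 83.6 CPM in WT libraries. The 3 Jak2V617F libraries were close to each other and far below all the rest. Idh1 rose 6.13-fold in Asxl1-/-Jak2V617F against Jak2V617F (log2 2.62 ± 0.10, adjusted p = 8.08e-08), a change larger in size than that of 93.6% of genes tested and ranked 2 by p-value. It fell by 2.32 ± 0.10 log2 units in Jak2V617F against WT (adjusted p = 8.41e-08). Its difference was 0.29 ± 0.09 in Asxl1-/-Jak2V617F against WT (adjusted p = 0.0514) and 0.20 ± 0.10 in Asxl1-/- against WT (with adjusted p = 0.19). The first of these passed without Asxl1-/-Jak2V617F 3 (0.39, adjusted p = 0.0139), and with DESeq2, median-of-ratios scaling and the stricter filter (adjusted p = 0.0227, 0.0402 and 0.0324).

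Idh2 (ENSMUSG00000030541, mm10 chr7:80094846-80115392, minus strand), the mitochondrial enzyme, was also lowest in Jak2V617F but was above the WT level in both Asxl1-/- genotypes. It was at 215, 214 and 169 CPM in Asxl1-/-Jak2V617F libraries, 92.4, 79.4 and 90.4 CPM in Jak2V617F, 203 and 187 CPM in Asxl1-/-, and 161, 142 and 128 CPM in WT. No Jak2V617F library reached a library of another genotype, and no Asxl1-/-Jak2V617F or Asxl1-/- library fell within the WT range. Idh2 rose by 1.19 ± 0.12 log2 units in Asxl1-/-Jak2V617F against Jak2V617F (with adjusted p = 9.06e-06) and fell by 0.72 ± 0.11 in Jak2V617F against WT (adjusted p = 0.000264). Against WT it rose by 0.47 ± 0.11 in Asxl1-/-Jak2V617F (adjusted p = 0.0217) and by 0.44 ± 0.13 in Asxl1-/- (adjusted p = 0.0283). The call for Asxl1-/-Jak2V617F against WT was lost without Asxl1-/-Jak2V617F 1 or 2 or WT 2 or 3 (adjusted p = 0.0653, 0.0678, 0.0758 and 0.0861). The call for Asxl1-/- against WT was lost without WT 2 or 3 (adjusted p = 0.0767 and 0.0943). It was lost with the Y-linked term, at 0.64 (adjusted p = 0.103), and with library size scaling, at 0.27 (adjusted p = 0.120). It was also lost without Asxl1-/- 1 or 2, at 0.39 and 0.50, which leaves 1 library in that group.

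The length-scaled ratio of Idh1 to Idh2 was 0.481 ± 0.0156 in Asxl1-/-Jak2V617F, 0.179 ± 0.0165 in Jak2V617F, 0.459 ± 0.0255 in Asxl1-/- and 0.548 ± 0.0768 in WT (SD, n = 3, 3, 2 and 3), so the cytosolic gene was the more reduced of the pair in Jak2V617F. Other enzymes around isocitrate and alpha-ketoglutarate went the opposite way to the pair in Jak2V617F. Of 16 tested, 12 rose and 2 fell in Jak2V617F against WT, with a median log2 fold change of 0.47, and 2 rose and 7 fell in Asxl1-/-Jak2V617F against Jak2V617F, with a median of -0.16. Idh3a and Idh3b, subunits of the NAD-dependent isocitrate dehydrogenase, rose by 1.01 ± 0.14 and 0.60 ± 0.09 in Jak2V617F against WT (adjusted p = 8.46e-05 and 0.000163), and Cs, citrate synthase, by 0.86 ± 0.09 (adjusted p = 1.07e-05). The exceptions, which moved with the pair, were Glud1 and D2hgdh. Glud1, glutamate dehydrogenase, fell by 0.67 ± 0.08 in Jak2V617F against WT (adjusted p = 2.29e-05) and rose by 0.91 ± 0.08 in Asxl1-/-Jak2V617F against Jak2V617F (with adjusted p = 3.29e-06). D2hgdh, the dehydrogenase that clears the D form of hydroxyglutarate, fell by 0.42 ± 0.15 (adjusted p = 0.0298) and rose by 0.48 ± 0.15 (adjusted p = 0.0187) in those comparisons. In Asxl1-/-Jak2V617F against WT 6 of the 16 rose and 0 fell, with a median of 0.26, beside 15.1% of all genes passing. In Asxl1-/- against WT 4 rose and 0 fell, with a median of 0.27, beside 22.5%, and genotype and Y-linked reads coincide there. Idh2 was also higher in both.

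**Figure D3:**
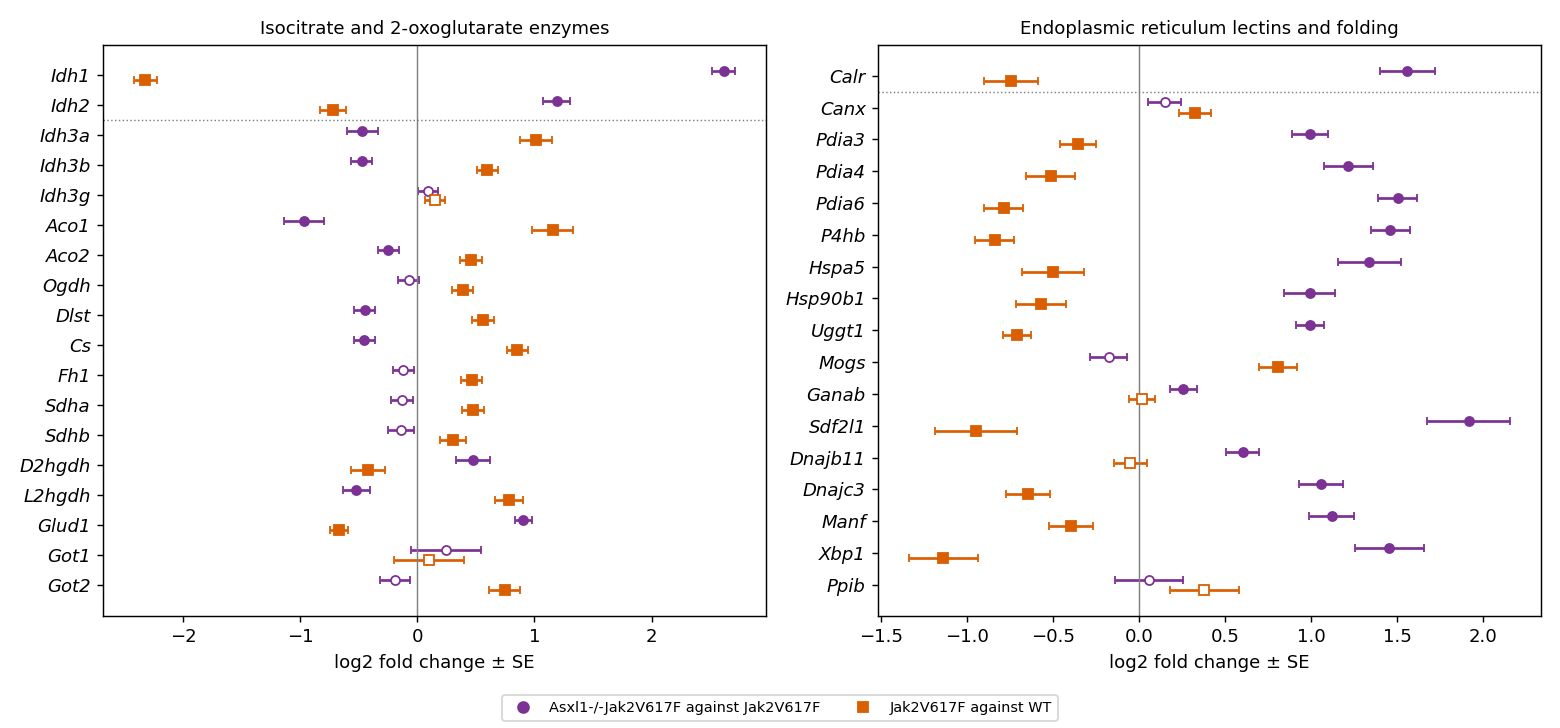
Log2 fold change ± SE (horizontal axis) of the isocitrate and 2-oxoglutarate (alpha-ketoglutarate) enzymes (left) and of Calr with the endoplasmic reticulum folding genes (right), for Asxl1-/-Jak2V617F against Jak2V617F (circles) and Jak2V617F against WT (squares). Filled symbols passed the test, and genes above the dotted line are the driver genes. On the left most enzymes lie opposite to Idh1 and Idh2, and on the right most genes lie on the side of Calr.

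Runx1 (ENSMUSG00000022952, mm10 chr16:92601466-92826149, minus strand), the blood transcription factor, was lower in Jak2V617F than in the other 3 genotypes. It was at 121, 106 and 90.6 CPM in Asxl1-/-Jak2V617F libraries, 49.7, 51.0 and 58.3 CPM in Jak2V617F, 109 and 107 CPM in Asxl1-/-, and 114, 99.5 and 94.8 CPM in WT libraries. The Jak2V617F libraries stood alone, and the other 3 genotypes overlapped. Runx1 rose by 1.0 ± 0.11 log2 units in Asxl1-/-Jak2V617F against Jak2V617F (with adjusted p = 2.85e-05) and fell by 0.95 ± 0.11 in Jak2V617F against WT (adjusted p = 2.99e-05). Its difference in Asxl1-/- against WT was 0.07 ± 0.12, with a 95% interval of -0.20 to 0.34 (adjusted p = 0.700).

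Runx2 and Cbfb shared the direction of Runx1. Runx2, its paralogue, rose by 2.05 ± 0.15 in Asxl1-/-Jak2V617F against Jak2V617F (with adjusted p = 1.1e-06) and fell by 2.14 ± 0.15 in Jak2V617F against WT (adjusted p = 7.52e-07). Cbfb, the subunit that binds all Runx proteins, rose by 1.43 ± 0.15 (adjusted p = 1.52e-05) and fell by 1.27 ± 0.14 (adjusted p = 2.76e-05) in the same comparisons. Of 7 tested genes of this list, 3 rose and 1 fell in Asxl1-/-Jak2V617F against Jak2V617F, and 2 rose and 3 fell in Jak2V617F against WT, with medians of 0.18 and 0.04. Tle1, a corepressor that Runx proteins recruit, was the gene that ran opposite to Runx1 in both, at -0.46 ± 0.14 (adjusted p = 0.0164) and 1.0 ± 0.14 (adjusted p = 9.25e-05). Runx3, the other paralogue, was above WT by 0.57 ± 0.18 in Asxl1-/- (adjusted p = 0.0429) and by 0.55 ± 0.16 in Asxl1-/-Jak2V617F (adjusted p = 0.0449). The length-scaled ratio of Runx1 to Runx3 was 0.608 in Asxl1-/-Jak2V617F, 0.348 in Jak2V617F, 0.614 in Asxl1-/- and 0.885 in WT.

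The 3 splicing factor genes varied least. Sf3b1 (ENSMUSG00000025982, mm10 chr1:54985169-55027481, minus strand), the branch point subunit of SF3b, was at 528, 523 and 560.5 CPM in Asxl1-/-Jak2V617F libraries, 534, 557 and 531 CPM in Jak2V617F, 521 and 537 CPM in Asxl1-/-, and 530.0, 569 and 547 CPM in WT libraries. All 4 genotypes overlapped, and its genotype means differed by at most 0.05 on the log2 scale. The 95% interval of its difference was -0.16 to 0.15 in Asxl1-/-Jak2V617F against Jak2V617F (with adjusted p = 0.938) and -0.18 to 0.13 in Jak2V617F against WT (adjusted p = 0.814).

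U2af1 (ENSMUSG00000061613, mm10 chr17:31647082-31658754, minus strand), the subunit that reads the 3' splice site, was at 142, 150.3 and 157 CPM in Asxl1-/-Jak2V617F libraries, 149, 141 and 145 CPM in Jak2V617F, 148 and 146 CPM in Asxl1-/-, and 133, 120.1 and 133 CPM in WT libraries. Every library with a lesion was above every WT library. In the edgeR test none of the differences from WT passed, at 0.22 ± 0.07 in Asxl1-/-Jak2V617F (adjusted p = 0.0577), 0.17 ± 0.07 in Jak2V617F (adjusted p = 0.058) and 0.19 ± 0.08 in Asxl1-/- (adjusted p = 0.0994). Without WT 1 all 3 passed (adjusted p = 0.0276, 0.0208 and 0.0474), and without Jak2V617F 2 that of Jak2V617F passed (adjusted p = 0.0263). That of Jak2V617F also passed with DESeq2, median-of-ratios scaling, the stricter filter and library size scaling (adjusted p = 0.0101, 0.0203, 0.0225 and 0.0278), and that of Asxl1-/-Jak2V617F with the first 3 of these (adjusted p = 0.0155, 0.0418 and 0.0300).

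Srsf2 (ENSMUSG00000034120, mm10 chr11:116849901-116853094, minus strand), the serine and arginine rich factor, was at 448, 436 and 420.0 CPM in Asxl1-/-Jak2V617F libraries, 503, 450.1 and 496 CPM in Jak2V617F, 493 and 418 CPM in Asxl1-/-, and 454, 379 and 389 CPM in WT libraries. It was the only one of the 10 that rose in Jak2V617F against WT, by 0.25 ± 0.09 on the log2 scale (adjusted p = 0.0444), with groups that overlapped. That call was lost without Jak2V617F 1 or 3 or WT 2 or 3 (adjusted p = 0.102, 0.0914, 0.142 and 0.136), and without the filter on low counts (adjusted p = 0.0635). Srsf2 in Asxl1-/-Jak2V617F against Jak2V617F was at -0.15 ± 0.09 (adjusted p = 0.215), and it passed with library size scaling (-0.27, adjusted p = 0.0277). The whole span of Srsf2 overlaps Mettl23 on the opposite strand, and 655 bases overlap Mfsd11. Strand use in counting is not given in the sources used here, so the reads of these genes may be mixed. Mettl23 had 308 to 687 counts per library and Srsf2 at least 6453.

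Other splicing factors listed with Sf3b1 and U2af1 did not share their narrow range. Of 19 tested genes of SF3b, SF3a, the U2 step and the wider spliceosome, 14 rose and 0 fell in Jak2V617F against WT. Their median log2 fold change was 0.45. Prpf8, the core scaffold of the spliceosome, rose by 0.70 ± 0.08 (adjusted p = 2.12e-05) and Sf3b4 by 0.99 ± 0.16 (adjusted p = 0.000305). Asxl1-/- against WT gave 9 higher and 0 lower genes of this list, with a median of 0.28, beside 22.5% of all genes passing. Genotype and Y-linked reads coincide there, and all genes passing fell from 3664 to 502 with the Y-linked term. Asxl1-/-Jak2V617F against WT gave 8 higher and 0 lower, with a median of 0.33, beside 15.1%. Asxl1-/-Jak2V617F against Jak2V617F gave 0 higher and 4 lower genes, with a median of -0.11, and 7 passed in all with library size scaling, where U2af1 in this comparison was at -0.07. Sf3b3, a WD-repeat partner of Sf3b1 in SF3b, rose by 0.55 ± 0.08 in Jak2V617F against WT (adjusted p = 0.000151). The length-scaled ratio of Sf3b1 to Sf3b3 was 1.06 ± 0.0532 in Asxl1-/-Jak2V617F, 0.938 ± 0.0400 in Jak2V617F, 1.17 ± 0.00409 in Asxl1-/- and 1.40 ± 0.180 in WT (SD, n = 3, 3, 2 and 3).

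Calr (ENSMUSG00000003814, mm10 chr8:84841850-84846934, minus strand) was the most abundant of the 10 and the one raised furthest above WT in both Asxl1-/- genotypes. It was at 2548, 2394 and 1784 CPM in Asxl1-/-Jak2V617F libraries, 620.3, 795 and 868 CPM in Jak2V617F, 2116 and 1834 CPM in Asxl1-/-, and 1431, 1164 and 1235 CPM in WT libraries. The Jak2V617F libraries were below all WT libraries, and those were below all Asxl1-/-Jak2V617F and Asxl1-/- libraries. Calr rose by 1.56 ± 0.16 log2 units in Asxl1-/-Jak2V617F against Jak2V617F (with adjusted p = 1.44e-05) and by 0.81 ± 0.16 against WT (adjusted p = 0.0115). It fell by 0.75 ± 0.16 in Jak2V617F against WT (adjusted p = 0.00183) and rose by 0.63 ± 0.17 in Asxl1-/- against WT (with adjusted p = 0.0246). The call for Asxl1-/-Jak2V617F against WT was lost without WT 2 (adjusted p = 0.0504). That for Asxl1-/- against WT was lost without Asxl1-/- 1 or 2 or WT 2 or 3 (adjusted p = 0.19, 0.0628, 0.0838 and 0.07), with the Y-linked term (adjusted p = 0.299), with library size scaling (adjusted p = 0.0688) and with a replicate block (adjusted p = 0.0530).

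Canx, the membrane-bound sister lectin of Calr, rose by 0.32 ± 0.09 in Jak2V617F against WT (adjusted p = 0.0128), where Calr fell, and was at 0.15 ± 0.09 in Asxl1-/-Jak2V617F against Jak2V617F (with adjusted p = 0.232). The length-scaled ratio of Calr to Canx was 4.92 ± 0.879 in Asxl1-/-Jak2V617F, 1.84 ± 0.154 in Jak2V617F, 4.58 ± 0.258 in Asxl1-/- and 3.88 ± 0.182 in WT (SD, n = 3, 3, 2 and 3). Most other folding genes of the endoplasmic reticulum moved with Calr. Of 16 tested genes, 13 rose and 0 fell in Asxl1-/-Jak2V617F against Jak2V617F, with a median log2 fold change of 1.02, and 2 rose and 11 fell in Jak2V617F against WT, with a median of -0.51. Pdia6 and P4hb, protein disulphide isomerases, rose by 1.5 ± 0.11 (adjusted p = 1.53e-06) and 1.46 ± 0.12 (adjusted p = 2.15e-06) in Asxl1-/-Jak2V617F against Jak2V617F, and Uggt1, the folding sensor that sends glycoproteins back to Calr and Canx, by 0.99 ± 0.08 (adjusted p = 2.88e-06). Mogs, the glucosidase that trims glycans first, rose by 0.80 ± 0.11 in Jak2V617F against WT (adjusted p = 9.04e-05), opposite to Calr.

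In Asxl1-/-Jak2V617F against WT 13 of these 16 rose and 0 fell, beside 15.1% of all genes passing. In Asxl1-/- against WT 8 rose and 0 fell, beside 22.5%. The first count was 8 without Asxl1-/-Jak2V617F 1 and 6 without WT 2, where all genes passing fell from 2449 to 531. The second was 4 without WT 2, 5 without WT 3, and 0 with a term for libraries with Y-linked reads. With that term all genes passing fell from 3664 to 502. The second count also fell without Asxl1-/- 1 or 2, which leaves 1 library in that group.

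The promoter of Calr is shown with that of Pdia6, the gene closest to it in profile over the libraries, because both hold the endoplasmic reticulum stress element, a bipartite motif bound by NF-Y and ATF6. Each run is the 250 bases before the start site in the direction of transcription, from RefSeq (GRCm38.p6), at chr8:84846932-84847181 on the minus strand for Calr and chr12:17266339-17266588 on the plus strand for Pdia6. Capitals mark the motif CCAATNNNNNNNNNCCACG, which Calr holds as its reverse complement, starting at -162.
Calr: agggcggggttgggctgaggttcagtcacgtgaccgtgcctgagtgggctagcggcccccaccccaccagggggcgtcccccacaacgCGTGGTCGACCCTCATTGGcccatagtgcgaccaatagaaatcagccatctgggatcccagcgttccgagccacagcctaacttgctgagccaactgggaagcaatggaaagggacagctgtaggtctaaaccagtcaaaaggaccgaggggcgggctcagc
Pdia6: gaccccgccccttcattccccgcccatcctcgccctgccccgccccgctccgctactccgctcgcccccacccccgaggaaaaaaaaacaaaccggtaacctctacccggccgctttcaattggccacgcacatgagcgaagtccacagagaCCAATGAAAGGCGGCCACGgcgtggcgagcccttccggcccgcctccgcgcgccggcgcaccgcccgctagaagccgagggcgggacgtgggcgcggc
Searched on both strands in windows of that length, the motif occurred in 37 of 32851 promoters (0.113%). All 10 driver genes were matched by symbol and 1 held it, and 5 of the 15 matched folding genes did (Canx, Pdia6, Hspa5, Hsp90b1 and Dnajc3). Canx, which differed from Calr above, thus holds it as well, and P4hb, the next closest to Calr in profile, does not. The motif contains the shorter CCAAT, which alone occurred in 33.8% of promoters. A match describes letters in a window and not a bound site.

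Cbl (ENSMUSG00000034342, mm10 chr9:44142976-44234049, minus strand), the receptor ubiquitin ligase, was, as Tet2, lower with either lesion alone. It was at 387, 378 and 338 CPM in Asxl1-/-Jak2V617F libraries, 194, 247 and 201 CPM in Jak2V617F, 228 and 234 CPM in Asxl1-/-, and 361, 441 and 399 CPM in WT libraries. Both single-lesion groups lay below every Asxl1-/-Jak2V617F and WT library. Cbl rose by 0.78 ± 0.11 log2 units in Asxl1-/-Jak2V617F against Jak2V617F (with adjusted p = 0.000131) and by 0.67 ± 0.12 against Asxl1-/- (adjusted p = 0.0118). It fell by 0.90 ± 0.11 in Jak2V617F against WT (adjusted p = 3.35e-05) and by 0.79 ± 0.12 when Asxl1-/- was set against WT (with adjusted p = 0.00248), and its difference in Asxl1-/-Jak2V617F against WT was -0.12 ± 0.11, with a 95% interval of -0.36 to 0.11 (adjusted p = 0.447). The call against Asxl1-/- was lost without Asxl1-/- 1 or 2 (adjusted p = 0.116 and 0.101), and that for Asxl1-/- against WT without Asxl1-/- 1 (adjusted p = 0.0539). Both held with the Y-linked term.

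The length-scaled ratio of Cbl to its paralogue Cblb was 13.0 ± 0.310 in Asxl1-/-Jak2V617F, 7.28 ± 1.11 in Jak2V617F, 8.74 ± 0.287 in Asxl1-/- and 15.4 ± 2.00 in WT (SD, n = 3, 3, 2 and 3). Of 15 other tested genes of receptor down-regulation, 8 rose and 1 fell in Asxl1-/-Jak2V617F against Jak2V617F, with a median log2 fold change of 0.42, and 1 rose and 6 fell in Jak2V617F against WT, with a median of -0.15. Sh3kbp1, the adaptor that links Cbl to endocytosis, rose by 1.10 ± 0.08 in Asxl1-/-Jak2V617F against Jak2V617F (with adjusted p = 8.48e-07). Cd2ap, the related adaptor, fell by 1.66 ± 0.15 there (adjusted p = 6.39e-06), against an average of 81.6 ± 5.96 CPM in Jak2V617F.

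**Figure D4:**
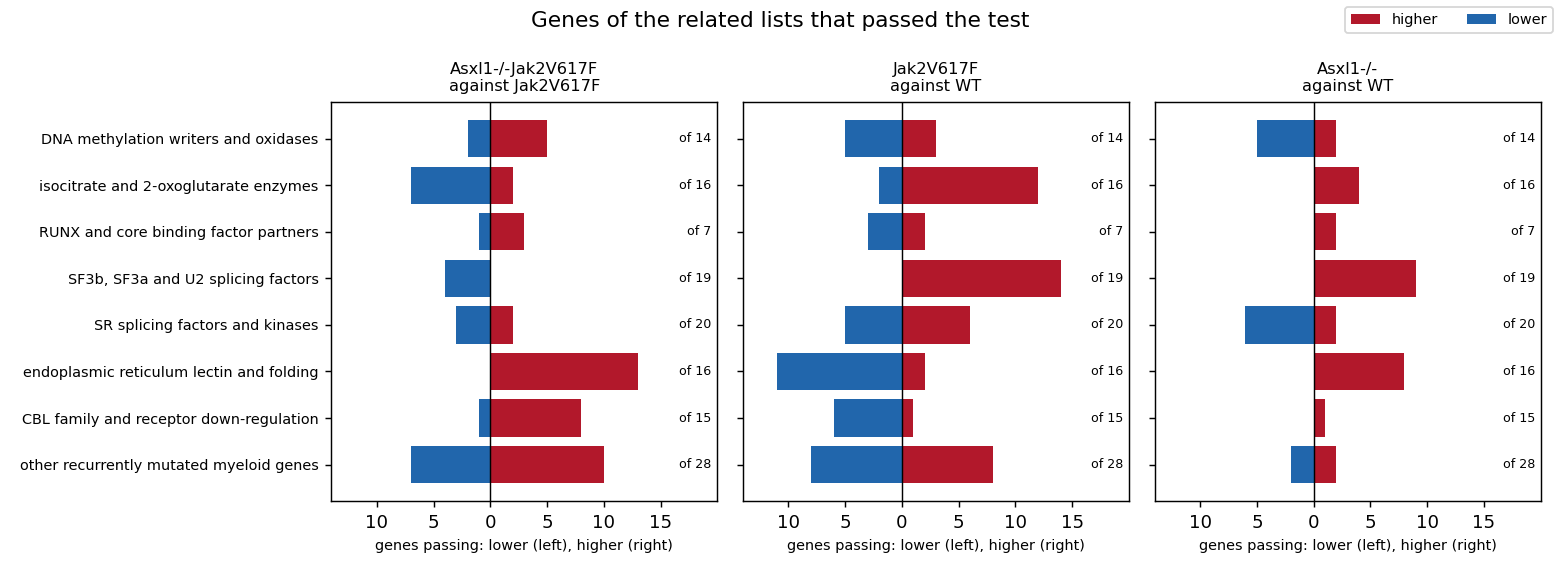
Number of genes of the 8 related lists that passed the test (horizontal axis, lower to the left and higher to the right) in 3 comparisons, with the number tested at the right. The folding list has 13 higher genes in Asxl1-/-Jak2V617F against Jak2V617F and 11 lower ones in Jak2V617F against WT.

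The effect of Asxl1 loss was then compared between the Jak2V617F and WT backgrounds, as the interaction of the model. It passed for 6 of the 10 genes, all positive, beside 41.6% of all genes passing, 23.7% positive and 17.9% negative. The median was 0.93 on the log2 scale for the 10 and 0.10 for all genes. Idh1 had the largest value, 2.42 ± 0.14 (adjusted p = 4.83e-06). For Tet2 (1.66 ± 0.19, adjusted p = 9.91e-05) and Cbl (1.57 ± 0.16, adjusted p = 5.00e-05) it joined a fall in Asxl1-/- against WT to a rise in Asxl1-/-Jak2V617F against Jak2V617F. Runx1 was at 0.92 ± 0.17 (adjusted p = 0.00142). Calr (0.93 ± 0.24, adjusted p = 0.00922) and Idh2 (0.75 ± 0.17, adjusted p = 0.00515) were higher with the Asxl1-/- label on both backgrounds, by more on Jak2V617F. On the WT background neither call held with the Y-linked term (adjusted p = 0.299 for Calr and 0.103 for Idh2). Dnmt3a was at 0.99 ± 0.38 (adjusted p = 0.0603) and passed without Jak2V617F 1 or 3 (adjusted p = 0.0231 and 0.0393) or with DESeq2 (adjusted p = 0.0221), and Srsf2 was at -0.31 ± 0.14 (adjusted p = 0.096) and passed without WT 1 (adjusted p = 0.0183). With a term for libraries with Y-linked reads, Idh2, Runx1 and Calr were at 0.48, 0.82 and 1.06 and no longer passed (adjusted p = 0.248, 0.0722 and 0.0973).

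**Figure D5:**
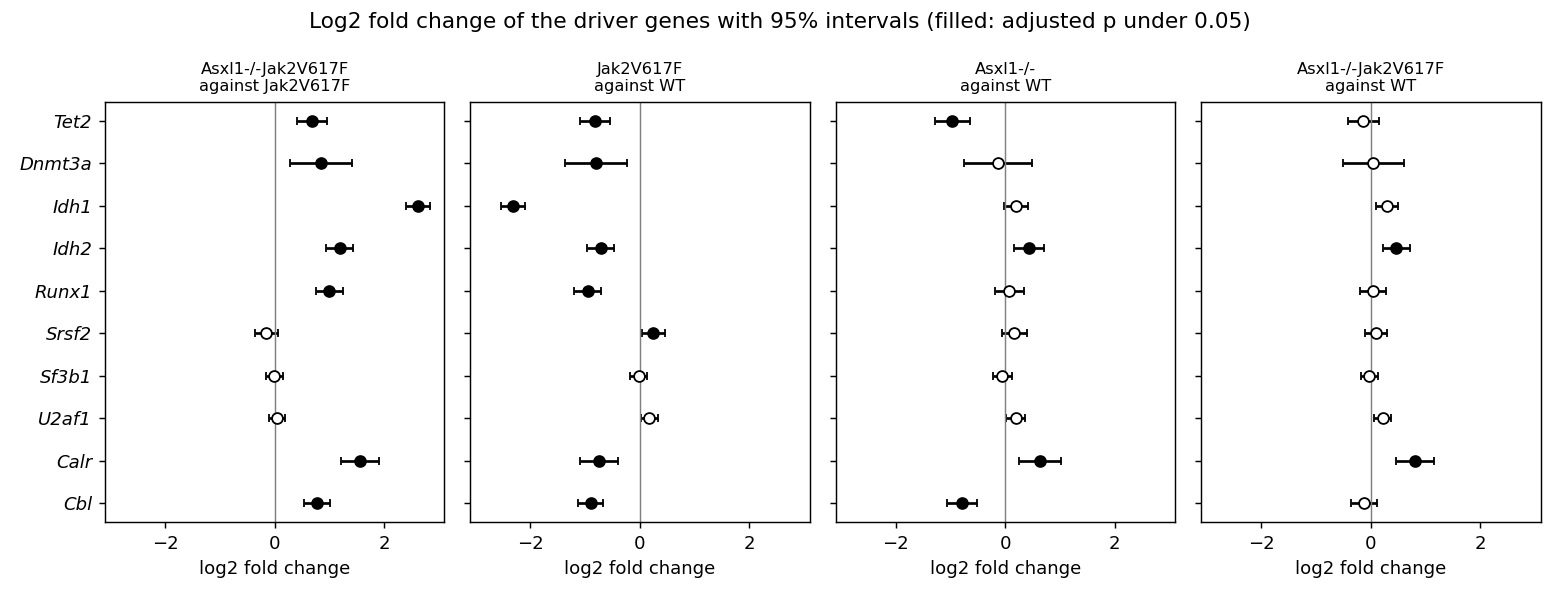
Log2 fold change of the 10 driver genes (horizontal axis) with 95% intervals in 4 comparisons, filled where the adjusted p was under 0.05. The points of Tet2 and Cbl lie to the left in both single-lesion panels and near 0 in Asxl1-/-Jak2V617F against WT.

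Per kilobase of gene length, levels of the 10 genes ranged over more than 2 orders of magnitude, with Calr highest and Tet2 lowest in every genotype. In Asxl1-/-Jak2V617F libraries they ran from 779 CPM per kilobase for Calr through 154 for U2af1, 147 for Srsf2, 77.0 for Idh2, 47.3 for Sf3b1, 36.9 for Idh1, 29.8 for Cbl, 8.79 for Runx1 and 5.10 for Dnmt3a to 3.23 for Tet2. U2af1 and Srsf2 were the only neighbours in this order whose libraries overlapped. In Jak2V617F libraries Srsf2 (163) and U2af1 (149) overlapped below Calr (264), Sf3b1 at 47.5 CPM per kilobase stood above Idh2 at 33.8, and Cbl at 17.3 stood above Idh1 at 6.03. Dnmt3a at 2.83 and Tet2 at 2.01 overlapped there. In WT libraries Idh2 (55.6) and Sf3b1 (48.2) overlapped, as did Cbl (32.4) and Idh1 (30.1). Idh1 stood above 90.1% of tested genes in Asxl1-/-Jak2V617F and 57.2% in Jak2V617F, against 88.9% in WT.

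For the 3 driver genes of widest range, the protein-coding genes of most similar profile were sought among 9960 candidates, by the root mean square difference of mean-centred log2 CPM over the 11 libraries. Idh1 was closest to Ldlrad3 (0.07) and Hpse (0.12). Calr was closest to Pdia6 (0.09) and P4hb (0.12), both in the folding list above. Idh2 was closest to Eno1 (0.07), the glycolytic enolase, and Ift57 (0.10).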

How the data were processed

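The values used were raw read counts per gene, deposited by the authors with 1 column per RNA-seq library. HISAT2 2.0.5, featureCounts 1.5.0-p3, DESeq2 1.16.1 and the mm10 genome are named, per the submitters' processing notes, without roles. No strand setting, rule for multi-mapping reads or annotation version was given in the sources used here.

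The filter was filterByExpr by group, which kept 16262 genes. After TMM normalisation edgeR 4.0.16 (R 4.3.3) fitted all 11 libraries with a genotype factor (quasi-likelihood, robust). Its p-values were Benjamini-Hochberg adjusted across the genes tested, and a gene passed at under 0.05. The SE is the absolute log2 fold change over the square root of F. Length-scaled values divide CPM by the deposited gene length. The procedure was also run on simulated counts with the same spread for every gene, unlike these data, and no result here rests on it. Chi-square per degree of freedom between replicates was 8.44 to 37.0, more than counting noise alone would give. Each library was counted as 1 sample, though this value cannot tell different animals from separate preparations of 1 animal.

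The driver genes and gene lists were chosen with earlier results of these data known, and 1 item of the lists is not reported here. Named genes are the 10, Asxl1 and, per list and comparison, up to 4 passing genes by smallest adjusted p. Kit, Canx, D2hgdh, the partners in ratios and the genes of both promoters were chosen after their values were seen. Alternatives were DESeq2 1.42, scaling by median of ratios, dropping or tightening the filter, the compared groups alone, a replicate block, a Y-linked term, each library left out and, added after seeing the data, library size scaling.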

Additional observations from a re-analysis of the deposited data

Results flagged for a closer look

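For 6 of the 10 driver genes the effect of Asxl1 loss differed between the Jak2V617F and WT backgrounds by the interaction test of edgeR's quasi-likelihood fit. The difference, as the log2 change on Jak2V617F minus that on WT, was 2.42 for Idh1 (adjusted p = 4.83e-06), 1.66 for Tet2 (adjusted p = 9.91e-05), 1.57 for Cbl (adjusted p = 5.00e-05), 0.93 for Calr (adjusted p = 0.00922), 0.92 for Runx1 (adjusted p = 0.00142) and 0.75 for Idh2 (adjusted p = 0.00515). Of all genes tested 41.6% passed the same test. With a term for libraries with Y-linked reads, Calr, Runx1 and Idh2 were at 1.06, 0.82 and 0.48 and no longer passed (adjusted p = 0.0973, 0.0722 and 0.248). Granulocyte markers passed it in 10 of 10 cases, all positive, and erythroid markers in 8 of 10, all negative, and their part in the values above was not tested.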

How the results depend on the processing

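The calls for Tet2, Idh1, Idh2, Runx1, Calr and Cbl in Asxl1-/-Jak2V617F against Jak2V617F and in Jak2V617F against WT held under every alternative run, and no driver gene that passed changed sign under any. Dnmt3a lost both calls without the filter (adjusted p = 0.0748 and 0.0766). The cause of the changes below was not tested. For Asxl1-/-Jak2V617F against WT, 4 driver genes passed with DESeq2, 4 with median-of-ratios scaling and 4 with the stricter filter, where Idh1 and U2af1 were added; of all genes 3469, 2631 and 2789 passed there, against 2449. For Asxl1-/-Jak2V617F against Asxl1-/-, 899 genes passed, against 1467 with DESeq2, 585 with the replicate block and 52 with the Y-linked term. The Y-linked term also left 1 driver gene in that comparison, 1 driver gene and 502 genes in Asxl1-/- against WT, and 3 driver genes and 3079 genes for the interaction. With library size scaling 2 driver genes passed in Asxl1-/- against WT. That scaling moved the median log2 fold change of all genes to -0.12 in Asxl1-/-Jak2V617F against Jak2V617F, -0.17 in Asxl1-/- against WT and -0.11 in Asxl1-/-Jak2V617F against WT, with 3396 higher and 4322 lower genes, 648 higher and 2785 lower, and 748 higher and 1493 lower. For Asxl1-/-Jak2V617F against Asxl1-/- it gave 845 higher and 281 lower genes, and the Y-linked term 51 higher and 1 lower. With the Y-linked term Asxl1-/- against WT had 94 higher and 408 lower genes.

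Leaving out each library gave 6 to 7 driver genes in Asxl1-/-Jak2V617F against Jak2V617F, 6 to 9 in Jak2V617F against WT, 0 to 5 in Asxl1-/- against WT, 0 to 3 in Asxl1-/-Jak2V617F against WT, 0 to 2 in Asxl1-/-Jak2V617F against Asxl1-/- and 6 to 7 for the interaction. All genes passing ranged from 5839 to 7062 in Asxl1-/-Jak2V617F against Jak2V617F, 7408 to 8608 in Jak2V617F against WT, 288 to 4376 in Asxl1-/- against WT, 531 to 3493 in Asxl1-/-Jak2V617F against WT, 86 to 751 in Asxl1-/-Jak2V617F against Asxl1-/- and 4483 to 7016 for the interaction.

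Signs changed only for differences that had not passed. Sf3b1 in Jak2V617F against WT was at 0.0274 with DESeq2, 0.0274 with median-of-ratios scaling, 0.0122 with the stricter filter, 0.0031 with the groups alone and 0.0117 with library size scaling, and -0.0251 to 0.0046 with a library left out. In Asxl1-/-Jak2V617F against Jak2V617F it was at 0.0037 without the filter, 0.0138 with the Y-linked term and -0.0396 to 0.0032 with a library left out. Leaving out a library also gave Sf3b1 -0.0609 to 0.0164, Dnmt3a -0.147 to 0.169 and Runx1 -0.0562 to 0.155 in Asxl1-/-Jak2V617F against WT. In Asxl1-/-Jak2V617F against Asxl1-/- it gave Dnmt3a -0.0078 to 0.308, Idh2 -0.0230 to 0.138, Runx1 -0.130 to 0.0693, Sf3b1 -0.0074 to 0.0513, Srsf2 -0.175 to 0.0573 and U2af1 -0.0080 to 0.0682. The Y-linked term put Idh2 at -0.172 and U2af1 at -0.0359 there. Library size scaling put U2af1 at -0.0689 in Asxl1-/-Jak2V617F against Jak2V617F, Runx1 at -0.0909 and Srsf2 at -0.0038 in Asxl1-/- against WT, Dnmt3a at -0.0369 and Runx1 at -0.0406 in Asxl1-/-Jak2V617F against WT, and Runx1 at 0.0502 and Srsf2 at 0.0167 in Asxl1-/-Jak2V617F against Asxl1-/-.

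Over 15 pairs of libraries with the same replicate number, deviations from group means correlated at -0.199 to 0.174, and 4 exceeded 0.1. Pairs with different numbers ranged from -0.230 to 0.242. Deviations from the means of such small groups are tied to each other, so these values cannot decide whether replicate numbers pair the samples. With the replicate block Calr in Asxl1-/- against WT was at 0.61 (adjusted p = 0.0530). Counting depth did not limit the driver genes, of which none had fewer than 305 counts in a library.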

Other observations

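Among 28 other tested genes that are recurrently mutated in myeloid neoplasms, 10 rose and 7 fell in Asxl1-/-Jak2V617F against Jak2V617F, with a median log2 fold change of -0.06, and 8 rose and 8 fell in Jak2V617F against WT, with a median of 0.11, beside 44.3% and 53.5% of all genes passing. In the first comparison 10 passed in all without Asxl1-/-Jak2V617F 2, and 10 without Jak2V617F 3. Cebpa, a transcription factor of granulocyte development, averaged 145 ± 43.2 CPM in Asxl1-/-Jak2V617F, 15.1 ± 3.71 CPM in Jak2V617F, 164 ± 17.4 CPM in Asxl1-/- and 107 ± 18.8 CPM in WT libraries (SD, n = 3, 3, 2 and 3). It rose by 3.26 ± 0.27 log2 units in Asxl1-/-Jak2V617F against Jak2V617F (with adjusted p = 9.39e-06). Csf3r, the receptor of granulocyte colony-stimulating factor, rose by 2.92 ± 0.27 (adjusted p = 2.05e-05) and Etv6, an ETS repressor, by 1.17 ± 0.12 (adjusted p = 1.03e-05) there. In Asxl1-/-Jak2V617F against WT a single gene of the list passed, Npm1, a nucleolar chaperone, which rose by 0.62 ± 0.12 (adjusted p = 0.0123). The number passing there was 0 without WT 2, 3 without WT 1 and 4 without Asxl1-/-Jak2V617F 3.

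Among 20 tested serine and arginine rich splicing factors and their kinases, 6 rose and 5 fell in Jak2V617F against WT, with a median of 0.02, beside 53.5% of all genes passing, and 7 passed in all without WT 2. Srpk2, a kinase of these factors, fell by 1.68 ± 0.12 (adjusted p = 7.09e-07), and Srsf9 rose by 0.50 ± 0.08 (adjusted p = 0.000219). In Asxl1-/-Jak2V617F against Jak2V617F 2 rose and 3 fell, beside 44.3% of all genes, and the total was 2 without Asxl1-/-Jak2V617F 1 or 2 and 3 without Jak2V617F 1 or 3.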
